A study of Mus musculus with 32 samples.

Results

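The solute carriers are the largest group of membrane transporters in mammals, and 173 of their genes are described here across mouse lung endothelial cells (ECs) in which Dnmt1 had been silenced and inflammatory cytokines added. Members were the rows of the merged count table whose symbol has the form Slc, number, letter, number, and whose mean over all 32 libraries was at least 2 CPM (the count scaled to the total of its library). Of 54429 symbols in the table, 360 had this form, and 173 from 42 families met the level. The level was the measured value in this choice, so abundance is a description and not a result. Just inside the limit lay Slc6a15, Slc39a2, Slc52a3 and Slc6a19 with means of 2.16, 2.18, 2.25 and 2.29 CPM, and just outside it Slc22a21, Slc25a27 and Slc37a2 with 1.71, 1.69 and 1.68 CPM. Without their highest group, 3 members would have missed the limit: Slc39a2 without si-dnmt + TNF + IFN (0.835 CPM), Slc6a15 without si-dnmt + TNF (1.79 CPM) and Slc6a19 without si-control + IFN (1.92 CPM). Their high levels there are given with no test of the single gene, but the counts of members called were not corrected for this. Slc39a2 is counted among those higher with si-dnmt under TNF + IFN and raised by TNF + IFN with si-dnmt. Slc6a19 is counted among those raised by IFN with si-control.

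The cells were an immortalised mouse lung EC line, so all replicates share a single source, grown in culture without blood flow or other cell types. They had been transfected with a control siRNA (si-control) or with siRNAs against Dnmt1, the maintenance DNA methyltransferase (si-dnmt). Each was left without cytokine or given TNF at 10 ng/mL, interferon gamma (IFN) at 1000 U/mL, or TNF + IFN for 16 h, which made 8 groups of 4 replicates. The question posed by the design was how loss of Dnmt1 alters what the endothelium expresses at rest and under cytokines. All libraries had been transfected, so none stands for untreated cells. The labels call the replicates biological, and whether they were separate cultures or passages is not given in the sources used here.

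Solute carriers move their substrate down a gradient or against it by coupling to sodium, protons or an exchanged solute, without using ATP directly. Some sit in the plasma membrane and feed the cell with glucose, amino acids, vitamins and metals, some load or unload lysosomes, Golgi and vesicles, and the Slc25 family connects the cytosol with the mitochondrial matrix. In endothelium they are known for carrying glucose and amino acids across the blood-brain barrier and for supplying the glycolysis on which ECs depend. Inflammatory stimuli are known to change iron carriers and endolysosomal carriers in many cell types.

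Total counts ran from 17362546 to 33500030 a library, and the members together took 7873 to 10343 CPM of them. The silenced gene followed the labels: Dnmt1 stood at 86.5 to 211 CPM in the si-control libraries and at 5.11 to 17.3 CPM in the si-dnmt libraries. At rest, replicates 1 to 4 held 90.1, 89.1, 153 and 148 CPM with si-control and 10.3, 12.4, 6.45 and 6.53 CPM with si-dnmt. In every cytokine state replicates 3 and 4 stood above replicates 1 and 2 with si-control and below them with si-dnmt. Whether this deeper silencing bears on the results was not tested. In the mean of the si-control group at rest, all 12 endothelial and all 4 lymphatic markers reached 1 CPM. There 1 of 6 epithelial, 1 of 5 fibroblast, 1 of 5 pericyte and 2 of 5 leukocyte markers did so. In their highest groups the fibroblast markers Pdgfra and Col1a1 reached 2.33 and 1.48 CPM as well, and in its lowest group the lymphatic Prox1 held 0.0611 CPM. The summed lymphatic markers ran from 421 to 1277 CPM, with group means from 626 CPM (si-dnmt) up to 1100 CPM (si-control + TNF + IFN). With si-control, Lyve1 held 435 CPM of them and Prox1 1.09 CPM. The summed leukocyte markers ran from 66.8 to 231 CPM, and the summed endothelial markers from 3808 to 10098 CPM. Marker sums moved with the groups: the group means ran from 8020 CPM (si-control) down to 4552 CPM (si-dnmt + TNF + IFN) for endothelial markers, from 208 to 97.9 CPM in the same groups for leukocyte markers, and from 1.99 CPM (si-control + IFN) up to 35.3 CPM (si-control + TNF) for fibroblast markers, of which Dcn held 32.8 CPM. Their part in the results was not tested. Replicates 1 and 2 of every group stood apart from replicates 3 and 4, which the labels do not explain, so values within each pair are given where they differ. Because these are bulk samples, fewer cells that express a gene and less of its RNA in each cell cannot be told apart.

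Grouped by substrate, the 173 members fell into 15 classes, led by 35 mitochondrial carriers, 26 carriers of metals and heme, 24 of amino acids, 21 of the Slc35 family (mostly nucleotide sugars), 17 of inorganic ions and 12 of sugars and polyols. Per length of exon, the highest mean levels were those of the mitochondrial ADP/ATP carriers Slc25a5 and Slc25a4, at 131 and 93.7 CPM per kb. Slc2a1, the main endothelial glucose carrier, followed at 85.3 CPM per kb, with the zinc carriers Slc39a1 at 81.5 and Slc30a4 at 73.0 CPM per kb. Slc3a2, the heavy chain shared by several amino acid exchangers, stood at 64.1 CPM per kb. All 173 members passed the filter on low counts, although 13 of them fell below 2 CPM in at least 1 group. Members whose exons overlap another gene over more than 20% of their length in the GENCODE M21 annotation include Slc39a7, Slc6a9, Slc33a1, Slc15a3 and Slc16a6, and their counts are uncertain because no strand setting is given.

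A gene was called where edgeR's quasi-likelihood test gave a Benjamini-Hochberg adjusted p below 0.05 over all 15254 genes tested. With si-control, TNF alone raised 27 members and lowered 30, which is 15.6% and 17.3% of them, while it raised 16.1% and lowered 14.6% of all genes tested. IFN alone raised 16 and lowered 14 members, against 8.56% and 5.92% of all genes. TNF + IFN raised 43 and lowered 47 members, 24.9% and 27.2%, against 23.5% and 21.6% of all genes. The members' shares thus lay within 6 percentage points of the shares of all genes in each cytokine state. Among the 11652 genes that also averaged at least 2 CPM, TNF + IFN raised 26.6% and lowered 23.1%.

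In si-dnmt cells TNF raised 16 and lowered 18 members (11.5% and 9.54% of all genes), IFN raised 17 and lowered 4 (6.66% and 2.35% of all genes), and TNF + IFN raised 40 and lowered 37 (21.3% and 18.9% of all genes). Same-numbered libraries of different groups deviated alike, and a fit with the replicate number as a block called more genes of every kind. It called 91 members for TNF with si-control (43.4% of all genes), 68 for IFN with si-control (25.4% of all genes), 61 for TNF with si-dnmt (34.3% of all genes) and 49 for IFN with si-dnmt (19% of all genes). Without replicate 1 of si-dnmt + IFN, the count for IFN with si-dnmt was 13 in place of 21. The median log2 fold change of the members under TNF + IFN with si-control was -0.03, and that of all genes was -0.01.

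**Figure D1:**
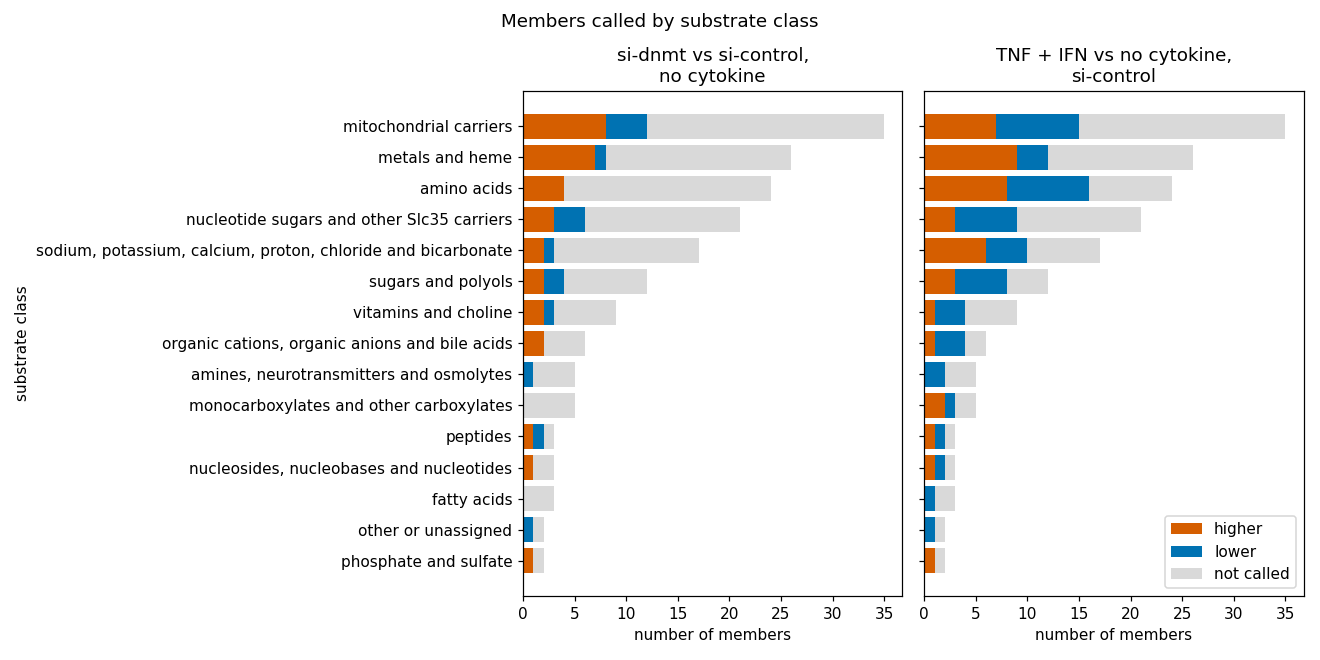
Members called higher (orange), lower (blue) or not called (grey) in each of 15 substrate classes, as numbers of genes, for si-dnmt against si-control without cytokine (left) and for TNF + IFN against no cytokine with si-control (right). On the left the mitochondrial carriers, 35 of the 173 members, hold 8 of the 33 rises and 4 of the 15 falls, and on the right rises and falls are both spread over most classes.

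Silencing of Dnmt1 moved more members up than down. Without cytokine 33 members were higher with si-dnmt than with si-control and 15 were lower, 19.1% and 8.67% of them, beside 9.58% and 8.88% of all genes. Under TNF 35 were higher and 21 lower (10.4% and 9.59% of all genes), and under IFN 41 were higher and 13 lower (10.8% and 9.54% of all genes). Under TNF + IFN 30 were higher and 14 lower (8.97% and 8.72% of all genes). Among genes averaging at least 2 CPM, 11.2%, 11.6%, 12.5% and 9.88% were higher in the 4 states in that order, so the share of members that rose exceeded both backgrounds in each state. The median log2 fold change of the members was 0.06, 0.08, 0.11 and 0.06, and that of all genes lay between -0.01 and 0.00. With the replicate block the counts were 75 without cytokine (48 higher, with 32.4% of all genes called), 86 under TNF (51 higher, 33.4% of all genes) and 83 under TNF + IFN (51 higher, 30.8% of all genes).

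Of the 173 members, 18 were called higher with si-dnmt in all 4 cytokine states, 5 were called lower in all 4, and 88 were called in none. This is 10.4% and 2.89% of the members, beside 3.91% and 3.59% of all genes tested and 4.69% and 4.65% of those averaging at least 2 CPM. The 4 contrasts use different libraries. The risers came from 9 classes: the endolysosomal carrier Slc15a3, the sugar carriers Slc37a1 and Slc2a6, the vitamin carriers Slc19a2 and Slc52a3, the iron carriers Slc40a1 and Slc11a2, the amino acid carrier Slc36a1, the organic ion carriers Slc22a23 and Slc10a7, the mitochondrial carriers Slc25a25, Slc25a44, Slc25a22 and Slc25a16, the Slc35 members Slc35d1, Slc35c1 and Slc35a5, and the potassium-chloride cotransporter Slc12a7. The fallers were Slc45a4, Slc39a10, Slc25a46, Slc25a30 and Slc33a1. With the replicate block 26 rose and 9 fell in all 4 states, among them all 18 and all 5. Replicates 1 and 2 alone kept 16 and 3 of these, and replicates 3 and 4 alone kept 17 and 5. DESeq2 gave 20 and 5, again with all 18 and all 5.

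For 8 of these 23 members, leaving out a single library ended at least 1 of the 4 calls. Slc22a23, Slc25a16 and Slc35d1 lost calls without any one of replicates 1 and 2 of the si-control group or replicates 3 and 4 of the si-dnmt group, at 0.83 to 1.11 for Slc22a23 in 3 states, 0.27 to 0.33 for Slc25a16 under TNF + IFN and 0.61 to 0.72 for Slc35d1 in 3 states. Under TNF, Slc12a7 (0.22, then 0.17 to 0.22) depended on replicates 1 and 3 of si-control + TNF and 2, 3 and 4 of si-dnmt + TNF. Slc25a25 under TNF (0.69, then 0.56 to 0.73) depended on replicates 3 and 4 of si-control + TNF and every replicate of si-dnmt + TNF. Among the fallers, Slc25a30 lost its call at rest without replicates 3 or 4 of si-control or 2 or 3 of si-dnmt, and under IFN without replicates 3 or 4 of si-control + IFN, at -0.40 to -0.31. Slc33a1 lost it under IFN without replicate 3 of si-control + IFN, under TNF without replicate 3 of si-dnmt + TNF, and under TNF + IFN without replicate 2, 3 or 4 of either group, at -0.29 to -0.22. Slc39a10 is given with the metals.

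**Figure D2:**
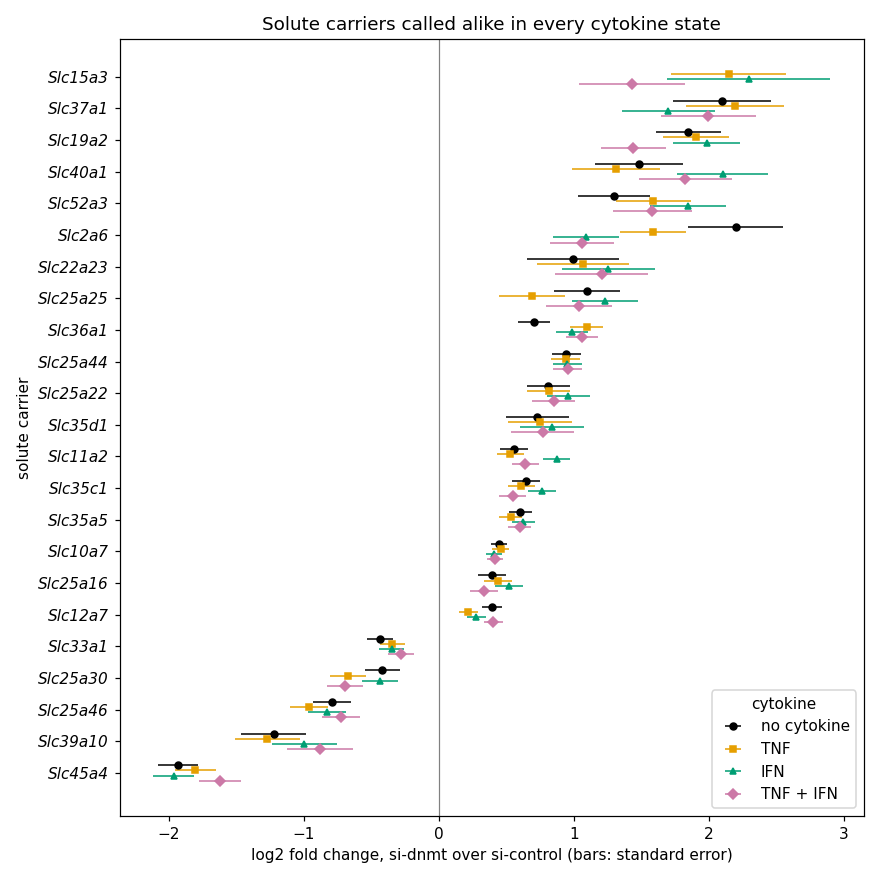
Log2 fold change of si-dnmt over si-control, with its standard error (n = 4 per group), for the 23 members called alike in all 4 cytokine states, each state with its own symbol. Slc15a3 has no point without cytokine because its si-control libraries held no count. The 18 risers lie right of 0 and the 5 fallers left of it, and for most members the 4 states lie close together.

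The change with the widest span was that of Slc15a3, which carries histidine and small peptides out of the endolysosome. None of the 4 si-control libraries held a count of it. It reached 3.27, 3.28, 1.64 and 1.95 CPM in replicates 1 to 4 under TNF, 0.336, 0.572, 0.273 and 0.108 CPM under IFN, and 27.3, 24.3, 9.49 and 10.8 CPM under TNF + IFN. Every cytokine library lay above the resting ones, and the TNF + IFN libraries lay above all others with si-control. Against the limit of 3 counts over the si-control group (0.0358 CPM), these groups were at least 72.2-fold, 8.62-fold and 467-fold higher, bounds that cover counting error only. Without replicate 2 of si-control + IFN the rise with IFN was not called.

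With si-dnmt, Slc15a3 stood at 0.267, 0.513, 0.137 and 0.243 CPM at rest, at least 8.39-fold above the same limit. Under TNF it reached 15.1, 18.4, 5.49 and 5.96 CPM, and under TNF + IFN 60.5, 69.3, 29.3 and 34.9 CPM. No si-dnmt library overlapped the si-control libraries of its own cytokine state. The log2 fold change of si-dnmt over si-control was 2.15 ± 0.43 (SE, n = 4 per group, adjusted p = 0.00072) under TNF, 2.29 ± 0.60 (adjusted p = 0.0078) under IFN and 1.43 ± 0.39 (adjusted p = 0.012) under TNF + IFN. In GENCODE M21, 28.1% of the exonic length of Slc15a3 overlaps Tmem132a, so reads of both could have been mixed.

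Among the sugar and polyol carriers, Slc2a6, a class III glucose carrier of intracellular membranes, rose with each cytokine and with si-dnmt. It stood at 0.751, 0.371, 0.439 and 0.493 CPM with si-control and at 12.7, 15.9, 11.5 and 14.3 CPM under TNF. Under IFN it reached 15.3, 17, 5.13 and 6.59 CPM, and under TNF + IFN 70.7, 59.4, 48.9 and 53.3 CPM. Each cytokine group lay wholly above the resting group, and TNF + IFN above each cytokine alone. The log2 fold changes were 4.71 ± 0.33, 4.40 ± 0.33 and 6.80 ± 0.34 (SE, n = 4 per group, adjusted p = 1.6e-11, 2.8e-11 and 1.3e-15).

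With si-dnmt Slc2a6 started at 2.23, 3.08, 1.95 and 2.33 CPM and ended at 119, 131, 114 and 120 CPM under TNF + IFN. Its si-dnmt libraries lay above the si-control libraries of the same state in all 4 states, by a log2 fold change of 2.2 ± 0.35 at rest, 1.58 ± 0.24 under TNF, 1.09 ± 0.24 under IFN and 1.06 ± 0.24 under TNF + IFN (adjusted p = 5.5e-05, 2.8e-05, 0.0019 and 0.0019). The value was smaller under TNF + IFN than at rest, but the interaction of siRNA and TNF + IFN, -1.14 ± 0.43, was not called (adjusted p = 0.32). The combined effect of the cytokines was smaller than the sum of the log2 effects of each alone: the TNF-by-IFN interaction was -2.31 ± 0.42 (adjusted p = 0.0021).

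Slc37a1, a glucose 6-phosphate and phosphate exchanger of the endoplasmic reticulum, was higher with si-dnmt in all 4 states and was raised by IFN in both arms. It stood at 1.92, 1.91, 1.85 and 1.75 CPM with si-control and at 12.1, 10.1, 5.08 and 4.62 CPM with si-dnmt. Under TNF + IFN the levels were 5.09, 4.74, 3.02 and 2.38 CPM with si-control and 20.9, 20.7, 10.5 and 9.09 CPM with si-dnmt. The siRNA groups did not overlap in any of the 4 states, while replicates 1 and 2 of si-dnmt lay above replicates 3 and 4. The log2 fold change was 2.09 ± 0.36, 2.19 ± 0.36, 1.70 ± 0.34 and 2.00 ± 0.35 at rest, under TNF, IFN and TNF + IFN (adjusted p = 0.00015, 6.9e-05, 0.00069 and 0.00017). IFN raised Slc37a1 with si-control to 6.00, 7.44, 3.16 and 4.81 CPM, a log2 fold change of 1.53 ± 0.37 (adjusted p = 0.0041), and TNF alone left it at 1.78 to 2.23 CPM.

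The stretches before the start sites of both genes are given because the siRNA acts on a DNA methyltransferase, whose substrate is the CpG dinucleotide, and because interferon-responsive promoters often hold a GAAANNGAA element. They are RefSeq sequences on GRCm38.p6, 250 bases 5′ of the start, in lower case. In Slc2a6 (chr2:27027999-27028248, minus strand) capitals mark the 20 CpGs.
Slc2a6: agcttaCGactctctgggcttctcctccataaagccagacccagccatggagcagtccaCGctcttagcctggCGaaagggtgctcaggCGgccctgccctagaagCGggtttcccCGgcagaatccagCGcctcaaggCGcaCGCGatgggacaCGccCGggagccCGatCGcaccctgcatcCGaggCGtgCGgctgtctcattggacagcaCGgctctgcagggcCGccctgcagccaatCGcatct
In Slc37a1 (chr17:31295974-31296223, plus strand) capitals mark the single match to GAAANNGAA, searched on both strands, which starts at -37.
Slc37a1: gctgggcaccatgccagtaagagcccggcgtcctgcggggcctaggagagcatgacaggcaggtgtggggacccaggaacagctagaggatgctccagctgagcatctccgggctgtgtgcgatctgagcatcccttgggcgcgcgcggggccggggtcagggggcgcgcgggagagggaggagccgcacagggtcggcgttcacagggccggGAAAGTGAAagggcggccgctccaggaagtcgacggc
The stretch of Slc2a6 holds no such match. One was found in 7.13% of all 32851 promoters of this length, and for 6.72% of members and 7.69% of tested genes with an entry. A promoter entry was found for 134 of the 173 members, with a median of 15 CpGs, beside 15.5 CpGs for all tested genes with an entry. The 13 of 18 consistent risers with an entry had a median of 20 CpGs (4.67 to 32). The 3 of 5 consistent fallers had 18 (16 to 19), and the 68 entries of members called in no state 14 (1 to 38). Methylation was not measured here, and a link between CpGs or the element and the changes was not tested.

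In the same class, Slc45a4, a proton-coupled sugar carrier homologue, had the largest falls of the 5 that were lower with si-dnmt in all states. Its levels were 28.9, 30.2, 29.3 and 32.3 CPM with si-control and 10.4, 8.51, 6.14 and 6.64 CPM with si-dnmt. The groups did not overlap in any state, with log2 fold changes of -1.93 ± 0.15, -1.80 ± 0.15, -1.96 ± 0.15 and -1.62 ± 0.15 (adjusted p = 7.9e-10, 4.6e-09, 9.7e-10 and 3.2e-08). TNF lowered it as well, to 14.6, 16.6, 17.6 and 17.3 CPM with si-control (log2 fold change -0.87 ± 0.14, adjusted p = 3.0e-05). Slc5a3, which takes up the osmolyte myo-inositol, fell with every cytokine in si-control cells, from 215, 169, 121 and 134 CPM to 50.6, 61.5, 46.8 and 42.4 CPM under TNF + IFN. Its log2 fold change was -1.06 ± 0.28 for TNF, -1.07 ± 0.28 for IFN and -1.67 ± 0.28 for TNF + IFN (adjusted p = 0.0042, 0.0081 and 1.9e-05).

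Slc2a1 rose only in the combination among the si-control contrasts: 349, 342, 208 and 198 CPM at rest became 628, 571, 394 and 399 CPM under TNF + IFN, a log2 fold change of 0.86 ± 0.20 (adjusted p = 0.0007). With si-dnmt the TNF + IFN libraries held 301, 365, 258 and 237 CPM. These lay below all 4 si-control libraries of that state, and si-dnmt was lower by a log2 fold change of -0.78 ± 0.20 (adjusted p = 0.0058). The lactate exporter Slc16a3 was raised by TNF + IFN with si-control from 169, 173, 60.1 and 56.9 CPM to 400, 350, 172 and 202 CPM (log2 fold change 1.29 ± 0.39, adjusted p = 0.0082). Its ranges overlap across replicates because replicates 1 and 2 stand higher throughout. Within replicates 1 and 2 the log2 fold change of Slc16a3 was 1.15, and within replicates 3 and 4 it was 1.68. Slc16a1, another carrier of lactate and pyruvate, was lower with si-dnmt under TNF + IFN (24.7 to 34.9 CPM against 40.1 to 54.3 CPM, log2 fold change -0.69 ± 0.16, adjusted p = 0.0021).

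**Figure D3:**
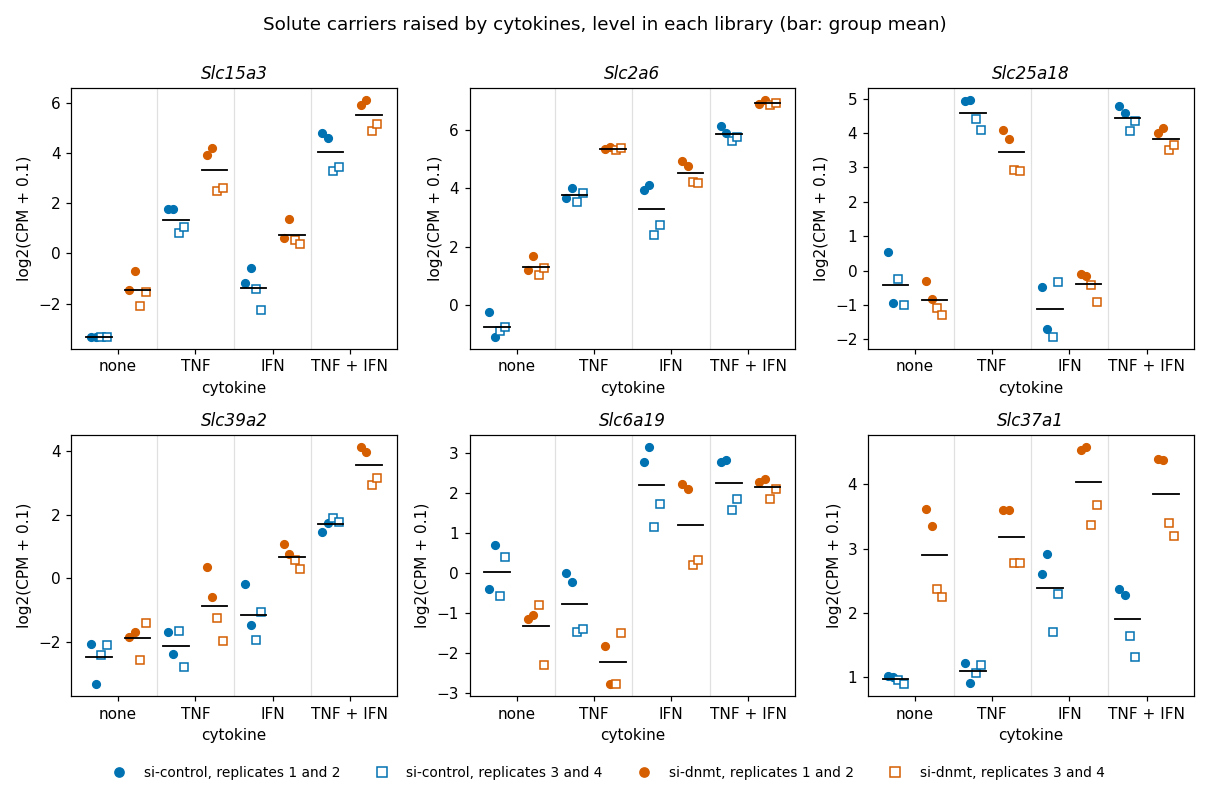
Levels of 6 carriers in each library as log2(CPM + 0.1), by cytokine state, with si-control in blue and si-dnmt in orange, circles for replicates 1 and 2, open squares for replicates 3 and 4, and a bar for the mean of the 4 log values. Slc15a3, Slc2a6 and Slc39a2 are highest under TNF + IFN, Slc25a18 rises with TNF and not with IFN, Slc6a19 rises with IFN, and Slc37a1 lies higher with si-dnmt in every state.

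Of the 35 mitochondrial carriers, TNF + IFN raised 7 and lowered 8 with si-control, near the shares of all genes (23.5% and 21.6%). Slc25a18, which carries glutamate into the matrix, responded to TNF alone and to the combination. It stood at 1.36, 0.424, 0.747 and 0.404 CPM at rest and at 30.2, 31.2, 21.0 and 16.9 CPM under TNF. Under IFN it held 0.164 to 0.702 CPM and under TNF + IFN 16.6 to 27.2 CPM. The TNF and TNF + IFN libraries lay above all others, and the log2 fold changes were 5.06 ± 0.38 and 4.88 ± 0.38 (SE, n = 4 per group, adjusted p = 4.8e-11 and 1.6e-11). Under TNF the si-dnmt libraries, 16.9, 14.1, 7.52 and 7.35 CPM, met the si-control range at its lower end, 16.9 CPM, and lay below it in the other 3 replicates (log2 fold change -1.11 ± 0.30, adjusted p = 0.0084).

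Slc25a22, the other mitochondrial glutamate carrier, rose with TNF + IFN and again with si-dnmt. Its levels were 16.1, 14.7, 19.7 and 19.6 CPM with si-control and 61.5, 56.1, 32.7 and 38.7 CPM under TNF + IFN (log2 fold change 1.43 ± 0.16, adjusted p = 3.1e-08). With si-dnmt they were 30.8, 30.7, 29.1 and 32.6 CPM at rest and 80.2, 81.7, 87.2 and 91.9 CPM under TNF + IFN. The siRNA groups did not overlap at either point, with log2 fold changes of 0.81 ± 0.16 and 0.85 ± 0.16 (adjusted p = 0.00062 and 0.00032). Slc25a44, a carrier of branched-chain amino acids into mitochondria, differed by nearly the same amount in each state: 0.94 ± 0.11, 0.94 ± 0.11, 0.95 ± 0.11 and 0.95 ± 0.11 (adjusted p = 4.3e-07, 3.7e-07, 3.5e-07 and 4.2e-07). Its resting libraries held 24.1 to 36.2 CPM with si-control and 58.6 to 60.4 CPM with si-dnmt. In the opposite direction, Slc25a46, an outer membrane protein tied to mitochondrial shape, was lower with si-dnmt by log2 fold changes of -0.79 ± 0.14, -0.96 ± 0.14, -0.83 ± 0.14 and -0.73 ± 0.14. Over the 4 states, 8, 8, 8 and 6 mitochondrial carriers were higher with si-dnmt and 4, 5, 7 and 3 lower. Of all genes, 9.58%, 10.4%, 10.8% and 8.97% were higher and 8.88%, 9.59%, 9.54% and 8.72% lower.

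Iron and zinc carriers made up most of the 26 members of the metal class. Of these, 7 were higher and 1 lower with si-dnmt at rest (9.58% and 8.88% of all genes). Under TNF + IFN with si-control 9 were higher and 3 lower (23.5% and 21.6% of all genes). Slc40a1 encodes ferroportin, the only known cellular iron exporter. Its levels were 30.6, 31.4, 55.1 and 56.5 CPM with si-control and 6.87, 8.59, 11.6 and 8.79 CPM under TNF + IFN. With si-dnmt it stood at 96.2, 84.4, 159 and 146 CPM at rest and at 18.6, 21.4, 43.1 and 43.5 CPM under TNF + IFN. The siRNA groups did not overlap in any state, and TNF + IFN lowered both arms.

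The log2 fold change of Slc40a1 for si-dnmt over si-control was 1.48 ± 0.33, 1.31 ± 0.33, 2.10 ± 0.34 and 1.82 ± 0.34 at rest, under TNF, IFN and TNF + IFN (SE, n = 4 per group, adjusted p = 0.0017, 0.0048, 5.3e-05 and 0.00036). TNF + IFN changed it by -2.28 ± 0.35 with si-control and by -1.94 ± 0.33 with si-dnmt (adjusted p = 3.9e-06 and 2.6e-05). The interaction, 0.34 ± 0.46, was not called (adjusted p = 0.92). Slc11a2, the proton-coupled iron importer of endosomes and membranes, was raised by si-dnmt and by TNF. It stood at 42.4, 47.2, 32.4 and 30.9 CPM with si-control, at 69.1, 67.4, 57.8 and 64.1 CPM under TNF, and at 53.9, 56.6, 59.8 and 54.5 CPM with si-dnmt. With both cytokines and si-dnmt it reached 115, 118, 122 and 113 CPM, above every library of the other 7 groups. The log2 fold change of Slc11a2 was 0.76 ± 0.10 for TNF with si-control (adjusted p = 1.5e-06) and between 0.53 and 0.87 for si-dnmt over the 4 states, each called.

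The mitoferrins, which bring iron into mitochondria, were raised by IFN. Slc25a28 (mitoferrin 2) went from 11.1, 10.0, 13.2 and 12.9 CPM to 27.1, 30.4, 26.7 and 31.5 CPM (log2 fold change 1.29 ± 0.10, adjusted p = 1.9e-11). With TNF added to IFN it held 24.8 to 30.0 CPM. TNF alone also raised Slc25a28, both with si-control and with si-dnmt. Slc25a37 (mitoferrin 1) went from 65.5 to 75.8 CPM at rest to 108 to 144 CPM under IFN and 142 to 178 CPM under TNF + IFN (log2 fold changes 0.79 ± 0.15 and 1.16 ± 0.16, adjusted p = 0.0005 and 5.1e-07). Under TNF + IFN the si-dnmt libraries held 81.0 to 117 CPM of Slc25a37, below all si-control libraries of that state (log2 fold change -0.66 ± 0.15, adjusted p = 0.003).

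Of 13 tested genes of metal handling outside the solute carriers, a list that included the transferrin receptor, ferritins and metallothionein, TNF + IFN raised 4 and lowered 2 with si-control (23.5% and 21.6% of all genes). With si-dnmt at rest 3 were higher and 1 lower (9.58% and 8.88% of all genes), or 6 and 2 with the replicate block. Among them Tfrc, the transferrin receptor, rose under TNF with si-control by a log2 fold change of 0.67 ± 0.18 (adjusted p = 0.0058), and Hmox1, which frees iron from heme, was higher with si-dnmt at rest by 1.37 ± 0.38 (adjusted p = 0.011).

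**Figure D4:**
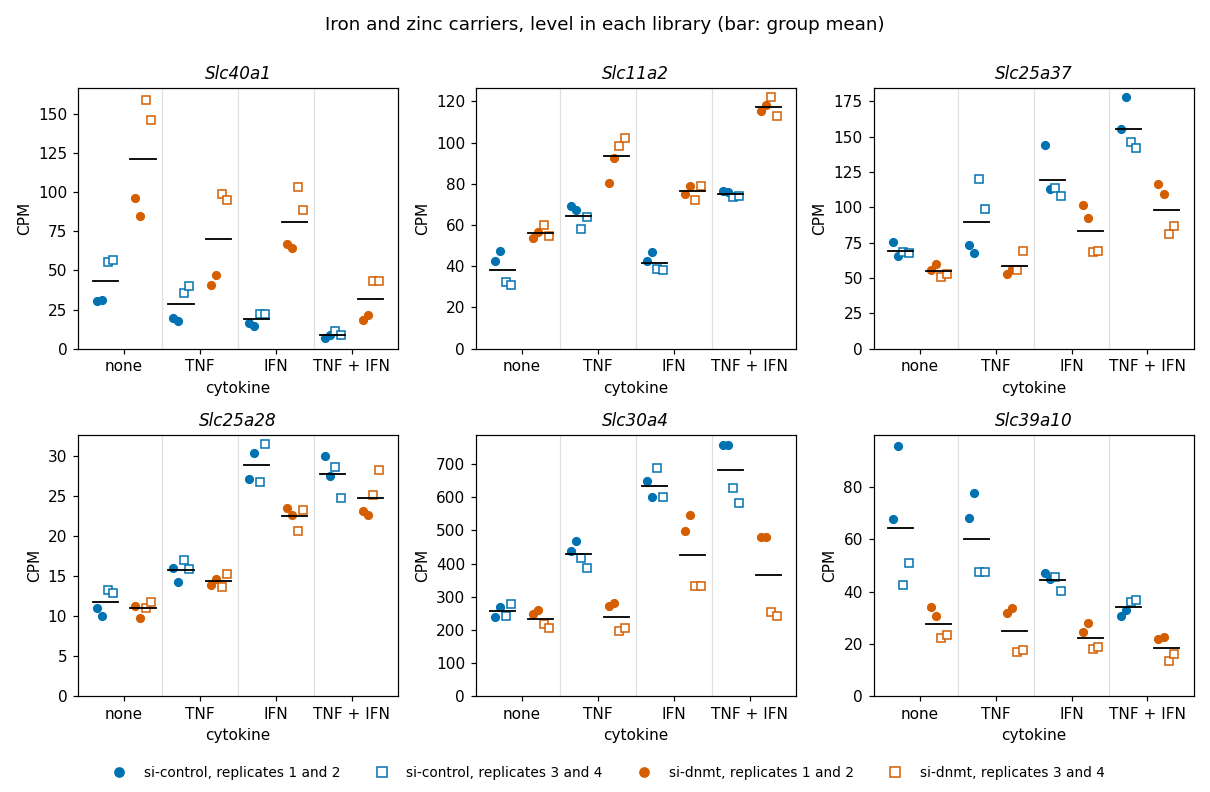
Levels in CPM of 6 iron and zinc carriers in each library on linear axes from 0, by cytokine state, with si-control in blue and si-dnmt in orange, circles for replicates 1 and 2, open squares for replicates 3 and 4, and a bar for the group mean. Slc40a1 and Slc11a2 lie higher and Slc39a10 lies lower with si-dnmt, and Slc25a28 and Slc30a4 rise with IFN.

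Zinc carriers moved in both directions. Slc30a4, which moves zinc out of the cytosol into vesicles, rose from 240, 268, 243 and 278 CPM to 438, 468, 418 and 387 CPM under TNF, 650, 602, 687 and 602 CPM under IFN and 759, 759, 627 and 582 CPM under TNF + IFN. Each cytokine group lay wholly above the resting group, with log2 fold changes of 0.74 ± 0.19, 1.31 ± 0.19 and 1.41 ± 0.19 (adjusted p = 0.0035, 7.5e-06 and 6.1e-07). With si-dnmt, TNF left it at 273, 282, 197 and 207 CPM, beside 249, 259, 218 and 206 CPM at rest. In that state si-dnmt was lower by -0.84 ± 0.19 (adjusted p = 0.002) and under TNF + IFN by -0.90 ± 0.19 (adjusted p = 0.001), while the siRNA-by-TNF interaction of -0.69 ± 0.26 was not called (adjusted p = 0.56).

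Slc39a10, a zinc importer of the plasma membrane, fell with si-dnmt: 67.8, 95.7, 42.6 and 50.9 CPM with si-control became 34, 30.6, 22.1 and 23.4 CPM. The groups did not overlap, and the log2 fold change was -1.22 ± 0.24 at rest, -1.27 ± 0.24 under TNF and -0.99 ± 0.24 under IFN (adjusted p = 0.00055, 0.00035 and 0.0037). Under TNF + IFN it was -0.88 ± 0.24 (adjusted p = 0.011), and -0.76 and no longer called without replicate 3 of si-dnmt + TNF + IFN.

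Slc39a2, a zinc importer of low abundance, rose from near absence. The 4 si-control libraries held 3, 0, 2 and 3 counts, and those of TNF + IFN 55, 62, 58 and 63. The ratio of the summed counts per total was 29.89 (95% counting interval 14.93 to 70.05). With si-dnmt the TNF + IFN libraries held 280, 259, 130 and 178 counts, or 17.2, 15.5, 7.52 and 8.79 CPM, against 2.64 to 3.57 CPM with si-control. These groups did not overlap, but Slc39a2 met the limit for members only through the si-dnmt + TNF + IFN libraries, so that difference is a description. Its start region holds 3 CpGs, shown in capitals (RefSeq, GRCm38.p6, chr14:51893360-51893609, plus strand).
Slc39a2: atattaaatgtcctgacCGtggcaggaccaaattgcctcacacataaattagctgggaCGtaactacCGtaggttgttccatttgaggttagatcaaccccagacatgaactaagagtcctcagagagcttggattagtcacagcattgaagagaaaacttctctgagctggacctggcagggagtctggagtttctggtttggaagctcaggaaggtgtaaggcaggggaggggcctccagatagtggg

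The vitamin carriers held 2 of the members that were higher with si-dnmt in all 4 states. Slc19a2, the thiamine importer, stood at 22.1, 22.9, 27.8 and 31.1 CPM with si-control and at 64.0, 67.8, 125 and 117 CPM with si-dnmt. Under TNF + IFN it held 15.3, 20.8, 20.3 and 21.9 CPM and 44.7, 37.4, 64.0 and 66.3 CPM. The groups did not overlap in any state, and the log2 fold changes were 1.85 ± 0.24, 1.91 ± 0.24, 1.98 ± 0.25 and 1.44 ± 0.24 (SE, n = 4 per group, adjusted p = 3.6e-06, 2.1e-06, 1.6e-06 and 0.0001). The cytokines alone did not change Slc19a2 past the threshold with si-control, the values being -0.06, -0.45 and -0.41.

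The start region of Slc19a2 (RefSeq, GRCm38.p6, chr1:164248796-164249045, plus strand) held 23 CpGs, in capitals.
Slc19a2: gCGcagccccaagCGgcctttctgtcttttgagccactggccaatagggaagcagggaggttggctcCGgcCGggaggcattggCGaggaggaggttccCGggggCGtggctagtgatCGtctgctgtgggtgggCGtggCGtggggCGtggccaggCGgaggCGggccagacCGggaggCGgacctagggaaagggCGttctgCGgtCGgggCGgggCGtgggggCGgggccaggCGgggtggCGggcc
Slc52a3, a riboflavin importer, was rarer, at 0.985, 2.17, 1.63 and 1.26 CPM with si-control and 3.60, 2.57, 4.16 and 4.48 CPM with si-dnmt. Its log2 fold changes over the 4 states were 1.30 ± 0.27, 1.59 ± 0.28, 1.84 ± 0.28 and 1.58 ± 0.29, and no library of one siRNA overlapped the other within a state. Of the 9 vitamin and choline carriers, only these 2 were called higher in any siRNA contrast.

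Among the 24 amino acid carriers, TNF raised 9 and lowered 5 with si-control, where it changed 30.8% of all genes, and raised 1 and lowered 2 with si-dnmt, where it changed 21% of all genes. With the replicate block the counts were 13 and 7 with si-control, and 4 and 5 with si-dnmt. Slc7a1, the cationic amino acid importer that supplies arginine, went from 71.4, 75.6, 74.1 and 78.4 CPM to 109, 126, 187 and 187 CPM under TNF (log2 fold change 1.02 ± 0.13, SE, n = 4 per group, adjusted p = 7.4e-07). With si-dnmt it went from 114, 111, 138 and 125 CPM to 124, 135, 137 and 161 CPM (0.19 ± 0.13, adjusted p = 0.33). The resting level was thus already higher with si-dnmt, by 0.70 ± 0.13 (adjusted p = 0.00029), and the groups under TNF overlapped.

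Slc16a10, a carrier of aromatic amino acids, was called in both arms. TNF took it from 10.8, 10.3, 11.9 and 13 CPM to 23.6, 24.1, 24.2 and 25.1 CPM with si-control (1.08 ± 0.10, adjusted p = 2.5e-09), and from 13.1, 14.3, 15.0 and 14.7 CPM to 15.9, 19.7, 16.9 and 16.5 CPM with si-dnmt. The latter change, 0.27 ± 0.10 (adjusted p = 0.044), was the one rise counted in that arm, and it was 0.20 to 0.30 and not called without any one of the 4 si-dnmt libraries or of replicates 2, 3 and 4 of si-dnmt + TNF. All TNF libraries with si-control lay above all those with si-dnmt. Of the 173 members, Slc16a10 was the one called in opposite directions in different states: higher with si-dnmt at rest and under IFN (0.31 and 0.39), lower under TNF and TNF + IFN (-0.49 and -0.30). The value at rest was 0.26 to 0.30 and not called without any one of replicates 1 and 2 of si-control and replicates 3 and 4 of si-dnmt, and that under TNF + IFN -0.30 to -0.23 and not called without any one of replicates 1 and 3 of si-control + TNF + IFN and replicates 3 and 4 of si-dnmt + TNF + IFN.

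The replicate pairs stood apart in Slc7a5 and Slc7a11, which pair with Slc3a2 to exchange large neutral amino acids and to import cystine. Slc7a5 held 16.9, 16.2, 53.5 and 51.9 CPM at rest and 43.1, 50.4, 162 and 186 CPM under TNF with si-control. The log2 fold change was 1.67 ± 0.50 over all libraries (adjusted p = 0.011), 1.52 within replicates 1 and 2, and 1.72 within replicates 3 and 4. Slc7a11 went from 125, 137, 306 and 326 CPM to 288, 304, 989 and 944 CPM (1.5 ± 0.44, adjusted p = 0.0094, with 1.19 and 1.61 in the 2 pairs). The call for Slc7a5 was lost without replicate 4 of si-control + TNF (1.30) and that for Slc7a11 without replicate 3 (1.2). With si-dnmt Slc7a11 held 162, 179, 342 and 381 CPM under TNF, and the difference from si-control, -1.25 ± 0.43 (adjusted p = 0.041), ran from -1.39 to -0.95 and was not called without any one of replicates 3 and 4 of si-control + TNF and replicates 1, 2 and 3 of si-dnmt + TNF. Within the pairs it was -0.80 and -1.42.

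The start region of Slc7a11 is shown because its promoter is known to hold amino acid response elements, the sites of ATF4. On RefSeq GRCm38.p6 (chr3:50443614-50443863, minus strand) capitals mark 2 matches to TGATGNAA on either strand, starting at -66 and -47.
Slc7a11: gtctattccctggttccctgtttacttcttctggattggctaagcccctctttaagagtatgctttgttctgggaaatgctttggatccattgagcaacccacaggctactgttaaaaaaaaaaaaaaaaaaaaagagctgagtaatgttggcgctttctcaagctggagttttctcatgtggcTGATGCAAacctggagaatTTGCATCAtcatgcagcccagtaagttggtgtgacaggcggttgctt
The letters TGATGNAA occurred in 3.45% of all promoters of this length. Binding was not measured here.

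**Figure D5:**
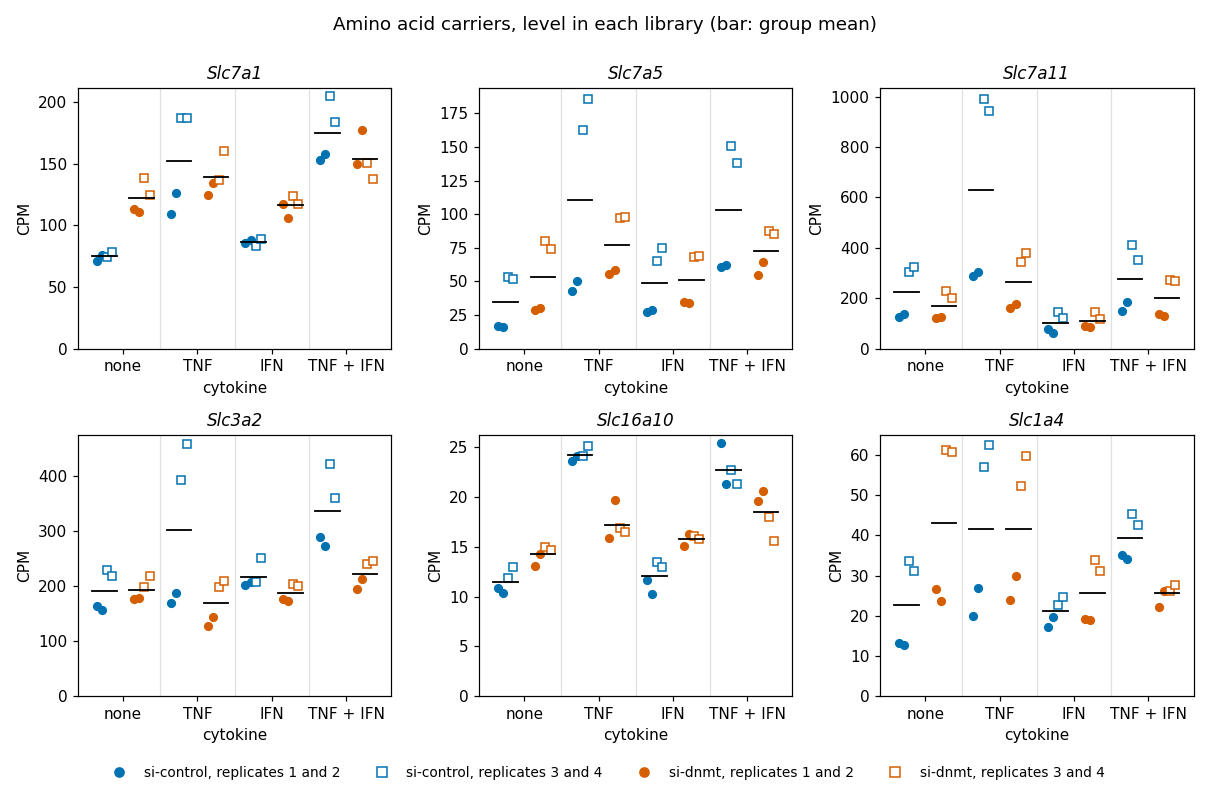
Levels in CPM of 6 amino acid carriers in each library on linear axes from 0, by cytokine state, with si-control in blue and si-dnmt in orange, circles for replicates 1 and 2, open squares for replicates 3 and 4, and a bar for the group mean. In Slc7a5, Slc7a11, Slc3a2 and Slc1a4 the replicate pairs separate within groups, while Slc16a10 rises under TNF to 23.6 to 25.1 CPM with si-control in all 4 replicates.

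Among other amino acid carriers, Slc6a19, a sodium-coupled carrier of neutral amino acids, held 0.657, 1.54, 0.571 and 1.21 CPM at rest and 6.67, 8.74, 2.13 and 3.19 CPM under IFN with si-control, the group through which it met the limit for members. The si-dnmt libraries held 8, 9, 14 and 3 counts of Slc6a19 at rest and 82, 99, 23 and 40 under IFN. Slc36a1, the lysosomal and plasma membrane carrier of small amino acids with protons, was higher with si-dnmt in all 4 states, by 0.70 ± 0.12, 1.10 ± 0.12, 0.99 ± 0.12 and 1.06 ± 0.12. At rest its libraries held 35.2 to 49.8 CPM with si-control and 56.7 to 82.3 CPM with si-dnmt. Slc38a2, a sodium-coupled importer of glutamine and alanine, fell under IFN with si-control by -0.56 ± 0.12 (adjusted p = 0.0009) and under TNF with si-dnmt by -0.44 ± 0.12 (adjusted p = 0.0065).

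The difference between the arms was tested as an interaction. For TNF the test called 1 member, Slc16a10 at -0.80 ± 0.14 (adjusted p = 0.015), where 0.0328% of all genes were called. Its call was lost without any one of replicate 3 of si-dnmt and replicates 1, 3 and 4 of si-dnmt + TNF, at -0.79 to -0.77. For TNF + IFN it called Slc7a1 at -0.89 ± 0.18 (adjusted p = 0.019) and Slc16a10 at -0.61 ± 0.14 (adjusted p = 0.033), where 0.531% of all genes were called. Leaving out replicate 4 of si-dnmt + TNF + IFN gave -0.84 for Slc7a1 with no call, and Slc16a10 lost its call in 10 of 16 such fits, at -0.63 to -0.54: without replicates 1, 2 or 3 of si-control, 1 or 3 of si-control + TNF + IFN, 2, 3 or 4 of si-dnmt, and 3 or 4 of si-dnmt + TNF + IFN. For IFN edgeR called no member, with 4 at an unadjusted p below 0.05 and none by DESeq2, where 0.0459% of all genes were called.

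With the replicate block, 5 members were called for TNF (0.892% of all genes), all lower: Slc7a5 at -0.98, Slc7a1 at -0.81, Slc7a11 at -0.81, Slc3a2 at -0.81 and Slc16a10 at -0.80. All 5 carry amino acids. For TNF + IFN it called 14 (4.18% of all genes), 11 of them lower, among them the amino acid carriers Slc1a4 at -1.53, Slc7a5 at -1.04 and Slc7a1 at -0.87, the lactate carriers Slc16a3 at -0.89 and Slc16a1 at -0.72, and the glucose carrier Slc2a1 at -0.79. The 3 higher were Slc6a6, Slc12a9 and Slc15a2, at 0.57, 0.71 and 0.98. Over the 24 amino acid carriers, 16 siRNA-by-TNF values lay below 0, with a median of -0.25, where 50.2% of all genes lay below 0. For IFN 11 lay below 0, with a median of 0.07.

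Genes of the amino acid stress response, a list of enzymes and factors that act with these carriers, are given beside them. Of 17 tested, TNF raised 14 with si-control and 3 with si-dnmt (16.1% and 11.5% of all genes), or 15 and 10 with the replicate block. TNF + IFN raised 16 and 12 (23.5% and 21.3% of all genes). With si-control IFN raised 9 of the 17 (8.56% of all genes). Of the 24 amino acid carriers it raised 1 and lowered 3 (8.56% and 5.92% of all genes). The 1 raised was Slc6a19, which met the limit for members through that group. Under TNF, 11 were lower and none higher with si-dnmt than with si-control (9.59% and 10.4% of all genes). Under IFN 7 of the list were lower and 1 higher (9.54% and 10.8% of all genes). Of the 24 amino acid carriers 4 were higher and 0 lower, beside 10.8% and 9.54% of all genes. Asns, which makes asparagine, rose by a log2 fold change of 1.92 ± 0.24 under TNF with si-control (adjusted p = 6.2e-07) and by 0.51 ± 0.24 with si-dnmt (adjusted p = 0.13). Chac1, which degrades glutathione, rose by 1.86 ± 0.31 and changed by 0.30 ± 0.31 in these arms (adjusted p = 4.6e-05 and 0.56). The siRNA-by-TNF interaction of the list had a median of -0.81. EdgeR called 0 of the 17, with 10 at an unadjusted p below 0.05, DESeq2 called 1 lower and the replicate block 3 lower. Within replicates 1 and 2 the median was -0.36 with 2 called, and within replicates 3 and 4 -1.18 with 16 called.

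Genes of glycolysis and pyruvate, 20 rows because Aldoa has 2, were raised by TNF + IFN in 14 rows with si-control and 9 with si-dnmt, and lowered in 3 of each. Of all genes, TNF + IFN raised 23.5% and lowered 21.6% with si-control, and raised 21.3% and lowered 18.9% with si-dnmt. Under TNF + IFN 13 of the 20 were lower with si-dnmt than with si-control and none higher (8.72% and 8.97% of all genes), alongside Slc2a1 and Slc16a1. The siRNA-by-TNF + IFN interaction was called lower in 2 rows, and in 10 with the replicate block (0.531% and 4.18% of all genes in either direction).

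Ions, nucleotide sugars and the smaller classes gave fewer large changes. Slc8a1, the plasma membrane sodium-calcium exchanger, rose under TNF + IFN from 7.55, 9.65, 13.9 and 14.1 CPM to 24.0, 23.3, 32.9 and 36.4 CPM (log2 fold change 1.37 ± 0.18, SE, n = 4 per group, adjusted p = 5.4e-07). Under TNF alone it held 8.85 to 11.3 CPM and under IFN 11.1 to 19.3 CPM. Only the combination lay wholly above rest, and the TNF-by-IFN interaction was 1.10 ± 0.26 (adjusted p = 0.025). That call was lost in 7 of 16 fits that left out a library, at 0.99 to 1.06: without replicates 3 or 4 of si-control, replicate 1 of si-control + TNF, replicates 1 or 2 of si-control + IFN, and replicates 3 or 4 of si-control + TNF + IFN. Slc2a6 and Slc8a1 were the 2 members called in this interaction (1.06% of all genes), and the replicate block called 9 (4.23% of all genes). Slc12a7, a potassium-chloride cotransporter, rose with each cytokine in both arms, by 0.50 ± 0.07, 0.84 ± 0.07 and 0.96 ± 0.07 with si-control.

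Slc35f1, an Slc35 member without a settled substrate, was lowered by TNF + IFN from 47.5, 45.3, 57.8 and 62.8 CPM to 11.3, 11.9, 11.7 and 9.37 CPM, a log2 fold change of -2.27 ± 0.30 (adjusted p = 4.6e-07). With si-dnmt it fell too, by -2.32 ± 0.31. Slc35b2, which brings the sulfate donor PAPS into the Golgi, fell under TNF with si-control by -0.89 ± 0.11 and under TNF + IFN by -1.16 ± 0.11 (adjusted p = 3.8e-07 and 7.8e-10). Slc35a5 and Slc35c1, the latter the Golgi carrier of GDP-fucose, were higher with si-dnmt in all 4 states, by 0.53 to 0.63 and 0.55 to 0.76. Of the 21 Slc35 members, 3, 5, 5 and 5 were higher and 3, 2, 1 and 0 lower with si-dnmt over the 4 states. The shares of all genes were 9.58%, 10.4%, 10.8% and 8.97% higher and 8.88%, 9.59%, 9.54% and 8.72% lower.

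Slc17a5, the lysosomal exporter of sialic acid, fell with TNF + IFN from 31.4, 34.8, 24.7 and 25.4 CPM to 11.1, 11.2, 8.44 and 9.84 CPM (-1.51 ± 0.15, adjusted p = 2.3e-09). Slc6a6, the taurine importer, fell from 200, 230, 229 and 236 CPM to 80.3, 97.1, 113 and 127 CPM (-1.10 ± 0.11, adjusted p = 2.7e-09). With si-dnmt Slc6a6 started lower, at 164, 161, 147 and 139 CPM (-0.55 ± 0.11, adjusted p = 0.00061), and ended at 101, 101, 112 and 108 CPM. The resting groups of Slc6a6 did not overlap and the TNF + IFN groups did. Slc22a23, an organic ion carrier homologue of unknown substrate, was higher with si-dnmt by 0.99, 1.07, 1.25 and 1.21. The calls at rest, under TNF and under TNF + IFN were lost without any one of replicates 1 and 2 of the si-control group or replicates 3 and 4 of the si-dnmt group, at 0.83 to 1.11. Within replicates 1 and 2 the values for Slc22a23 at rest, under TNF and under TNF + IFN were 1.03, 1.23 and 1.17, and within replicates 3 and 4 they were 0.98, 0.99 and 1.22.

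Other transporter families gave a comparison. Of 33 tested ATP-driven Abc transporters, 8 were higher and 2 lower with si-dnmt at rest (9.58% and 8.88% of all genes), and TNF + IFN raised 6 and lowered 13 with si-control (23.5% and 21.6% of all genes). Of 6 tested Slco organic anion transporters, TNF + IFN raised 2 and lowered 2 with si-control. With si-dnmt at rest edgeR called 0 of the 6, with 2 at an unadjusted p below 0.05, and DESeq2 called 1 higher and 1 lower.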

How the data were processed

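Bulk RNA-seq of 32 libraries gave the counts per gene that the authors deposited, without normalization. Per the submitters' processing notes, reads were handled with cutadapt 4.9, FastQC 0.12.1, MultiQC 1.27.1 and featureCounts. For the aligner, genome build, annotation and strand setting: not given in the sources used here. The merged table holds 54532 gene IDs with 54429 symbols, and some genes are not reported here. The members and gene lists were chosen with earlier results of these data known.

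Counts were fitted in R 4.3.3 with edgeR 4.0.16 (limma 3.58.1): 8 group means in 1 quasi-likelihood fit, genes filtered at a minimum count of 10, TMM factors from 0.88 to 1.09, and Benjamini-Hochberg adjustment over 15254 genes in each of 14 contrasts. Standard errors were taken from the log2 fold change and its F value. Levels are CPM over TMM-scaled totals, and member selection used column totals. Median depth was 20859668 counts, and intervals and limits from counts cover counting error only. The p-values rest on the spread between replicates within groups, estimated over all 8 groups together and with no block for the replicate number. The labels call the 4 replicates per group biological. The procedure was tested on simulated data.

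Deviations from the group mean correlated between same-numbered libraries of different groups (mean r = 0.42, lowest 0.3, highest 0.62, 40 of 40 compared pairs above 0.1). Of 32 libraries, 24 were closest to those of their own number. The numbers may therefore pair the libraries, a hint from the data that the labels do not state. The main fit, which gave the printed values unless another setting is named, did not use this pairing. Only the replicate block used it. Whether the pairing goes beyond the split of replicates 1 and 2 from replicates 3 and 4 was not tested. Alternatives were a replicate block, DESeq2 1.42.0, its size factors in edgeR (RLE), no low-count filter, only the libraries compared, replicates 1 and 2 or 3 and 4 alone, each library left out, a log2 fold change of at least 1 as well, and unscaled totals for levels.

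Genes that could be named with values were 28 of 32 listed carriers, the 5 called members with the largest rise and fall in each siRNA and si-control cytokine contrast (3 in the si-dnmt contrasts and interactions), and members called alike in all 4 siRNA contrasts, 64 in all, not each of which is printed. Lists of other transporters, amino acid stress, metal handling, glycolysis and cell type markers are described by counts, and Tfrc, Hmox1, Asns and Chac1 were picked from them after their values were seen. Promoter sequences came from RefSeq (GRCm38.p6), and exon lengths and overlaps from GENCODE M21.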

Additional observations from a re-analysis of the deposited data

Results flagged for a closer look

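Of the 224 combinations of 28 members and 8 groups examined, 5 held a library whose gap to its nearest neighbour, as a share of the range of the 4 replicates, exceeded Dixon's 95% critical value for 4 samples. Chance alone gives about 1 in 20 groups. They were Slc25a37 in replicate 1 of si-control + IFN at 144 CPM, Slc6a6 in replicate 1 of si-dnmt + IFN at 130 CPM, Slc52a3 in replicate 4 of si-control + TNF at 0.696 CPM, Slc3a2 in replicate 4 of si-control + IFN at 252 CPM and Slc8a1 in replicate 3 of si-dnmt + IFN at 10.8 CPM.

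Interaction tests called 5 values, 3 between the siRNA arms and 2 between the cytokines within si-control cells. The response of Slc16a10 with si-dnmt differed from that with si-control by -0.80 on the log2 scale for TNF and by -0.61 for TNF + IFN. That of Slc7a1 to TNF + IFN differed by -0.89. In si-control cells the effect of TNF on Slc2a6 differed by -2.31 between the presence and absence of IFN, and that on Slc8a1 by 1.10. The call of Slc2a6 held without each library in turn, and the other 4 were each lost without at least 1 library.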

How the results depend on the processing

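With the replicate number as a block, the count of members called rose to 75, 86 and 83 for si-dnmt against si-control at rest, under TNF and under TNF + IFN. In si-control it rose to 91 for TNF and 68 for IFN, and in si-dnmt to 61 and 49. The siRNA-by-TNF, siRNA-by-TNF + IFN and TNF-by-IFN interactions gave 5, 14 and 9. The block also added calls for the siRNA under IFN, and 26 members were then higher and 9 lower in all 4 states. No call of a named member was lost: all 309 called values stayed past the threshold in the same direction with it, as they did with DESeq2. Replicates 3 and 4 alone gave 78, 89, 87 and 90 for the siRNA at rest, under TNF, IFN and TNF + IFN, 96 and 55 for TNF and IFN in si-control, 40 for IFN in si-dnmt, and 21, 5, 31 and 9 for the interactions of siRNA with TNF, IFN and TNF + IFN and of TNF with IFN. Replicates 1 and 2 alone gave 62 for IFN in si-control, 69 and 51 for TNF and IFN in si-dnmt, and 7, 4, 20 and 15 for the same interactions. The cause was not tested. Requiring a log2 fold change of at least 1 as well left 9, 15, 10 and 11 for the siRNA, 12, 9 and 34 for TNF, IFN and TNF + IFN in si-control, 5, 6 and 22 in si-dnmt, and 0 for the siRNA interactions with TNF and TNF + IFN. DESeq2 gave 2 for siRNA-by-TNF and 4 for TNF-by-IFN. Without the filter these siRNA interactions gave 0 and 1, and with only the compared libraries 0, 1 and, for TNF-by-IFN, 1.

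The split of higher against lower calls moved with the tool or its scaling for IFN in si-dnmt (17 and 4 by edgeR with TMM, 13 and 5 with RLE, 17 and 7 by DESeq2), for TNF-by-IFN (1 and 1, 1 and 2, 1 and 3) and for siRNA-by-TNF + IFN (0 and 2, 0 and 2, 1 and 2). DESeq2 changes scaling and test together. Leaving out each library gave 36 to 44, 42 to 50, 38 to 52 and 34 to 43 for the siRNA in the 4 states, 43 to 59, 23 to 29 and 81 to 87 for the cytokines in si-control, and 24 to 33, 13 to 18 and 65 to 75 in si-dnmt. The 13 came without replicate 1 of si-dnmt + IFN. The siRNA interactions gave 0 to 2 for TNF, 0 to 0 for IFN and 0 to 3 for TNF + IFN, and TNF-by-IFN 1 to 3. The TNF value was 0 without replicate 3 of si-dnmt or replicate 1, 3 or 4 of si-dnmt + TNF, and the TNF + IFN value was 0 without replicate 4 of si-dnmt + TNF + IFN. The change of Slc1a5 under TNF with si-control was -0.00252 in replicates 1 and 2 alone. Of the called values of named members, 33 no longer passed the threshold without the filter, 44 of 304 with only the compared libraries, 23 in replicates 1 and 2 alone, 22 in replicates 3 and 4 alone and 6 with RLE. Leaving out each library in turn gave 2512 fits of such values, of which 301 no longer passed. Members below 2 CPM in some group, 13 in all, rest on few counts there.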

Other observations

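Slc1a3, a glutamate and aspartate importer, was looked at after its values were seen. Its mean was 9.37 CPM with si-control and 1.2 CPM under TNF + IFN, with libraries from 0.703 to 18.4 CPM and from 0.212 to 2.45 CPM, so the groups overlapped. The log2 fold change of Slc1a3 was -2.93 ± 1.31 and edgeR's quasi-likelihood test did not call it (adjusted p = 0.0706).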
